A study of Homo sapiens with 8 samples.

Results

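Homologous recombination and DNA repair genes were followed in BT-549, an established triple-negative breast cancer (TNBC) line, as 54 genes chosen by symbol from the known repair pathways and looked up among the 23228 genes counted. The 54 were 12 homologous recombination genes, 4 resection and helicase genes, 9 Fanconi anaemia genes, 8 break sensing and checkpoint genes, 7 end joining genes, 2 mismatch repair genes, 7 base excision and single-strand break repair genes and 5 nucleotide excision repair genes. All 54 were listed, and all 54 were among the 13694 genes that passed the filter on low counts. RNA-seq had been made from BT-549 cells exposed for 24 h to DMSO vehicle, to the LIFR inhibitor EC359 at 100 nM, to the histone deacetylase inhibitor vorinostat at 10 µM, or to both drugs at these doses (combination), with 2 libraries per group and 8 in all. All groups were unmodified cells of 1 line, and nothing in the labels says that the libraries of a group came from separate cultures, so p-values measure the spread between these libraries, which may be technical.

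Cells repair a double-strand break either by copying an intact sister sequence, which needs BRCA1, BRCA2 and the recombinase paralogs after the ends have been resected, or by joining the ends with Ku and DNA-PK. The Fanconi anaemia proteins unhook crosslinked strands, ATM and ATR signal the damage to the checkpoint kinases, and the excision and mismatch systems replace damaged or mispaired bases. Many of these genes are transcribed mainly in cells that replicate their DNA, and defects of BRCA1 or BRCA2 are a known feature of a share of breast cancers.

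The libraries held 19069450 to 24759041 counts on genes. Levels are given as CPM (counts per 1000000 counts after TMM scaling, called normalised CPM), and differences as log2 fold changes with their standard error (SE). A gene passed the test at an adjusted p under 0.01 by the quasi-likelihood test of edgeR after Benjamini-Hochberg adjustment over the 13694 genes, and every adjusted p below comes from that test. The line was checked against its markers. VIM ran from 2056 CPM with vehicle to 9442 CPM with the combination. Of 6 mesenchymal markers, 2 rose and 2 fell with EC359 and 1 rose and 3 fell with vorinostat, while 3 rose and 2 fell with the combination (TWIST1 by 2.23 and SPARC by 1.93 on the log2 scale). All 6 epithelial markers were low, at most 4.27 CPM (EPCAM, which rose with vorinostat). For the 3 that were tested, the medians were 2.32 with vorinostat and 1.97 with the combination on the log2 scale, and 0 passed with the combination by edgeR (1 had an unadjusted p under 0.05). Among the hormone receptor and luminal genes, ERBB2 fell in both groups with vorinostat, GATA3 rose in both but stayed at or under 3.32 CPM, and ESR1, at 0 counts in both vehicle libraries and at 20 and 11 counts with the combination, passed there. The part of these shifts in the results was not tested. The EC359 libraries stood apart. Log2 differences between duplicates, over the 54 genes, had an SD of 0.361 in EC359, where vehicle had 0.137, vorinostat 0.123 and the combination 0.197. As these are bulk samples, fewer cells of a kind and less RNA per cell cannot be told apart.

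Vorinostat lowered most of the repair genes that changed, alone and with EC359. Against vehicle, vorinostat alone lowered 29 of the 54 genes and raised 1, FANCM. Of all genes tested, 25.9% were lower and 26.2% higher in that comparison. The median log2 fold change was −0.66 over the repair genes and 0.03 over all genes tested. The combination lowered 30 of the 54 and raised 2, FANCM and LIG4, where 26.7% of all genes were lower and 29.7% higher, with medians of −0.64 and 0.07. Falls of over 2-fold numbered 14 with vorinostat (13.3% of all genes) and 12 with the combination (15.3%). EC359 alone moved 0 of the 54 past the test, where 3.81% of all genes were higher and 4.01% lower. These comparisons share the vehicle libraries and are given side by side.

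The summed counts of the 54 genes took 0.593% and 0.596% of all gene counts in the vehicle libraries and 0.579% and 0.589% in the EC359 libraries. They took 0.382% and 0.396% with vorinostat, and 0.355% and 0.344% with the combination. Both groups that received vorinostat thus lay below both others, without overlap.

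The rise of FANCM with vorinostat was lost without the second vehicle library or without either vorinostat library. The rises of FANCM and LIG4 with the combination passed whichever library was left out. With each library left out in turn, the median of the repair genes ran from −0.70 to −0.61 with vorinostat. With the combination it ran from −0.69 to −0.62. The medians of all genes tested ran from 0.02 to 0.05 and from 0.01 to 0.10.

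**Figure D1:**
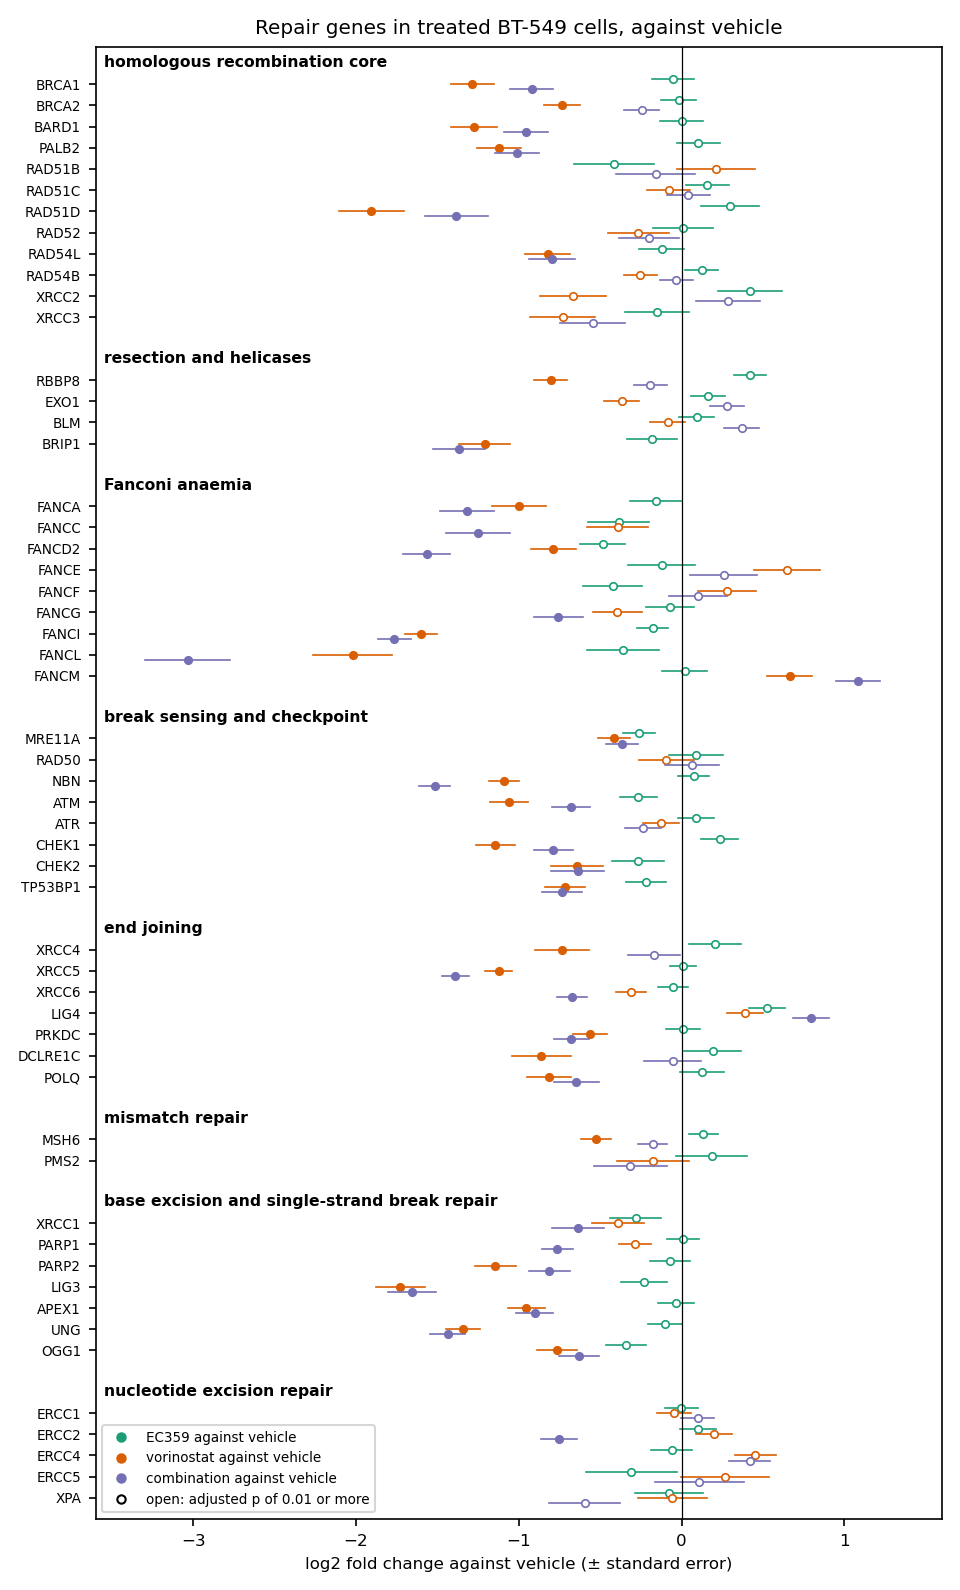
Log2 fold change against vehicle (x axis, bars: standard error) of each of the 54 genes, by repair group, for EC359, vorinostat and the combination, 2 libraries per group. Filled points passed the test (adjusted p under 0.01): 30 with vorinostat, 32 with the combination and 0 with EC359.

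Among the homologous recombination genes, 6 of 12 fell with vorinostat and 5 with the combination, and none rose. BRCA1, which with its partner BARD1 directs breaks to recombination (chr17:41196312-41322262 on GRCh37, the build the files share as hg19), stood at 109 and 107 CPM with vehicle and at 119 and 89.7 CPM with EC359. It stood at 44.2 and 44.9 CPM with vorinostat and at 58.4 and 56.1 CPM with the combination, so the libraries with vorinostat lay below all others. The log2 fold change was −1.28 (SE 0.133, adjusted p = 3.27e-05) with vorinostat and −0.92 (SE 0.131, adjusted p = 0.000211) with the combination.

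BARD1 followed the same order. Its level was 18.1 and 20.2 CPM with vehicle, 18.8 and 19.5 CPM with EC359, 7.51 and 8.29 CPM with vorinostat, and 9.67 and 10.1 CPM with the combination. The fall was by 1.28 (SE 0.139) on the log2 scale with vorinostat and by 0.96 (SE 0.137) with the combination. PALB2, which bridges BRCA1 and BRCA2, went from 59.4 and 60.8 CPM with vehicle to 27.7 and 27.5 CPM with vorinostat and 29.1 and 30.5 CPM with the combination. EC359 gave 73.2 and 55.9 CPM for PALB2, one library on each side of vehicle.

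BRCA2, which loads the recombinase onto resected DNA, passed with vorinostat only, where BRCA1, BARD1 and PALB2 passed with the combination too. The genes were not tested against each other. It stood at 61.5 and 56.8 CPM with vehicle, 62.1 and 54.6 CPM with EC359, 33.6 and 37.5 CPM with vorinostat, and 49.2 and 50.5 CPM with the combination. The fall with vorinostat passed the test (log2 fold change −0.73, SE 0.111, adjusted p = 0.000353). With the combination the log2 fold change was −0.25 (SE 0.11, adjusted p = 0.0726), although both libraries lay below both vehicle libraries. In a fit with a transcript length offset the fall with the combination passed. The difference between the combination and vorinostat was 0.49 (SE 0.111, adjusted p = 0.012) and did not pass.

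RAD51D, a recombinase paralog, had the largest fall of the homologous recombination genes. It stood at 10.2 and 10.4 CPM with vehicle, 13.3 and 12.0 CPM with EC359, 2.57 and 2.89 CPM with vorinostat, and 4.55 and 3.32 CPM with the combination. The log2 fold changes were −1.91 (SE 0.2) with vorinostat and −1.38 (SE 0.194) with the combination. RAD54L, a motor protein of strand exchange, fell by 0.82 and 0.79 on the log2 scale. It shares 26.2% of its exon bases with LRRC41 on the opposite strand, and the log2 fold change of LRRC41 was −2.85 with vorinostat and −3.50 with the combination. The paralogs RAD51B and RAD51C, the annealing protein RAD52, and RAD54B passed in none of the comparisons, and XRCC3 missed the threshold with vorinostat (−0.73, adjusted p = 0.01002). XRCC3 shares 34.2% of its exon bases with KLC1 on the opposite strand, whose log2 fold changes of 0.21 and 0.24 did not pass.

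The resection and helicase genes split. BRIP1, the helicase partner of BRCA1, fell in both groups with vorinostat, from 40.9 and 40.2 CPM with vehicle to 17.6 and 17.5 CPM with vorinostat and to 17.2 and 14.2 CPM with the combination. EC359 gave 40.7 and 30.8 CPM. The log2 fold changes of BRIP1 were −1.21 (SE 0.158) and −1.37 (SE 0.16). RBBP8, which encodes the resection factor CtIP, fell with vorinostat (−0.80, SE 0.102) and not with the combination (−0.19, adjusted p = 0.12). The nuclease EXO1 and the helicase BLM had log2 fold changes of −0.37 and −0.09 with vorinostat and of 0.28 and 0.37 with the combination, none of which passed.

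The Fanconi anaemia genes had the lowest median with the combination, at −1.25 on the log2 scale against −0.40 with vorinostat, and 6 of 9 fell with the combination against 4 with vorinostat. The count with vorinostat depended on the fit. With the vehicle and vorinostat libraries fitted alone, FANCC and FANCG also fell with vorinostat, where 35.5% of all genes were lower. Compared directly, the combination had a median of −0.36 against vorinostat, and 1 of the 9, FANCD2, passed. Another 11 Fanconi pathway genes, outside the 54, did not share this low median. With the combination 4 of them fell and 1 rose, with a median of −0.23. Against vorinostat 0 of them were lower and 2 higher, with a median of 0.01. FANCL, the ubiquitin ligase of the Fanconi core complex (chr2:58386378-58468545), had the largest fold change of the 54 genes. It stood at 24.6 and 22.4 CPM with vehicle, 14.2 and 22.5 CPM with EC359, 4.99 and 6.55 CPM with vorinostat, and 3.17 and 2.55 CPM with the combination. The log2 fold change was −2.02 (SE 0.242, adjusted p = 8.12e-05) with vorinostat and −3.03 (SE 0.264, adjusted p = 8.71e-06) with the combination, which left 0.122 of the vehicle level. FANCL shares 27.3% of its exon bases with VRK2 on the opposite strand, and VRK2 had log2 fold changes of −1.99 and −2.01. Whether counting used the strand is not given in the sources used here. Whether these counts hold reads of the partner, or lost shared reads as ambiguous, is thus not known. Exon bases are shared with another listed gene for 19 of the 54, and not every overlap is given here.

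FANCD2 and FANCI form the clamp that FANCL modifies. FANCD2 (chr3:10068054-10143616) stood at 101 and 107 CPM with vehicle, 63.4 and 84.9 CPM with EC359, 59.2 and 60.9 CPM with vorinostat, and 37.1 and 32.9 CPM with the combination. No library of a treated group reached the vehicle level, and the combination libraries were the lowest. The log2 fold change was −0.79 (SE 0.139, adjusted p = 0.000876) with vorinostat and −1.57 (SE 0.143, adjusted p = 1.18e-05) with the combination. It was −0.48 with EC359 (adjusted p = 0.0428), which did not pass.

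FANCI stood at 156 and 161 CPM with vehicle, 130.3 and 150.4 CPM with EC359, 53.4 and 51.2 CPM with vorinostat, and 46.5 and 46.9 CPM with the combination. The log2 fold changes were −1.60 (SE 0.1) and −1.77 (SE 0.101), and the combination differed from vorinostat by −0.16 (SE 0.0998, adjusted p = 0.251). FANCA, a core complex member, fell in both (0.5-fold and 0.401-fold). It shares 27.4% of its exon bases with ZNF276 on the opposite strand, whose log2 fold changes of −0.35 and −0.11 did not pass. In the fit to all libraries, FANCC and FANCG passed only with the combination (−1.25 and −0.76). Whether these falls differ from those with vorinostat alone was tested, and for FANCC the difference was −0.86 (adjusted p = 0.012) and for FANCG −0.36 (adjusted p = 0.107).

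FANCM, a DNA translocase that recognises stalled forks, moved the other way. It stood at 22.1 and 19.6 CPM with vehicle, 19.4 and 22.9 CPM with EC359, 33.1 and 32.9 CPM with vorinostat, and 47.5 and 40.9 CPM with the combination. FANCM rose 1.58-fold with vorinostat (log2 fold change 0.66, SE 0.136, adjusted p = 0.00218) and 2.12-fold with the combination (1.08, SE 0.136, adjusted p = 9.48e-05). The groups with vorinostat lay above both others without overlap. The core complex members FANCE and FANCF passed in neither comparison, at 0.65 and 0.28 with vorinostat.

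**Figure D2:**
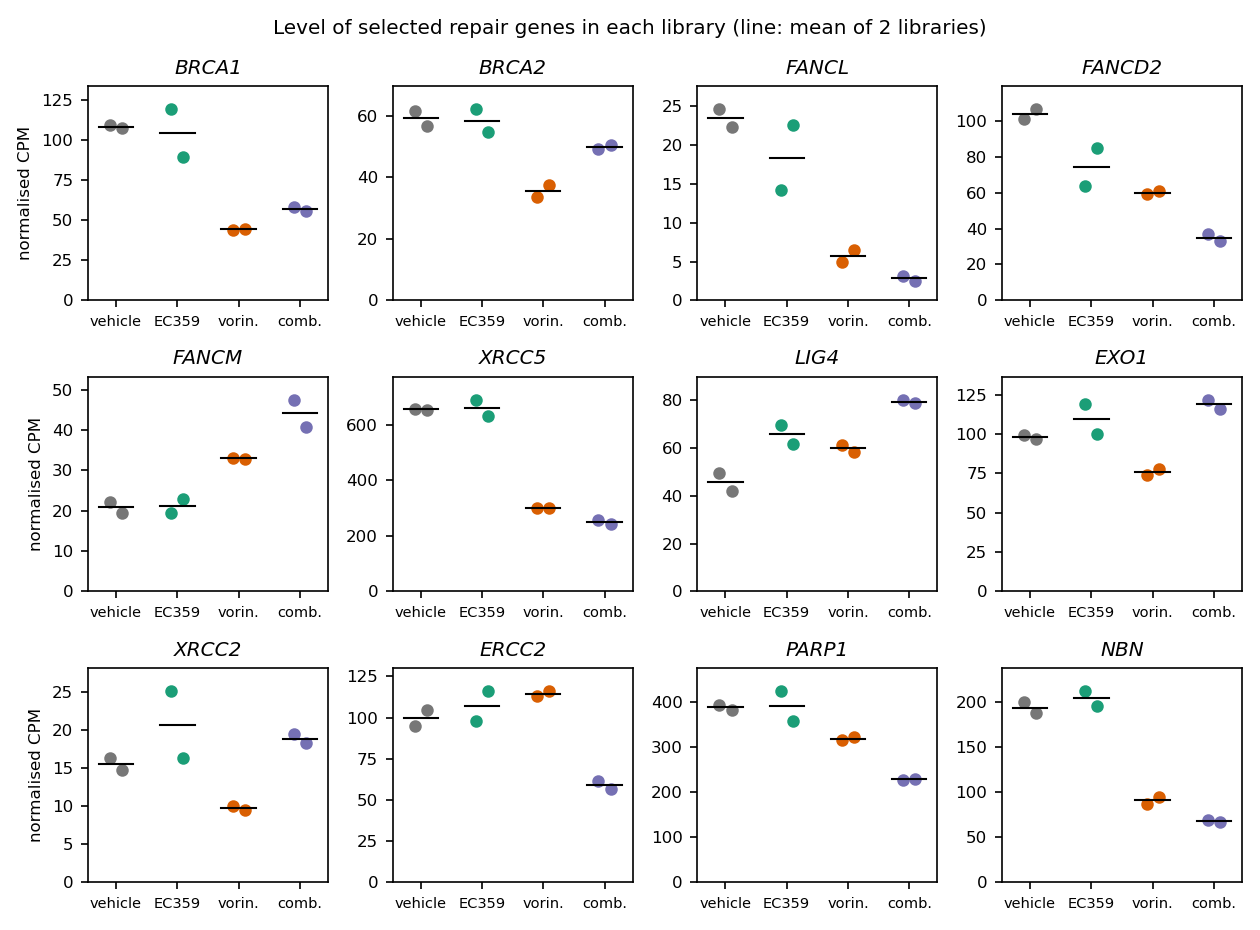
Normalised CPM (y axes from 0) of 12 repair genes in each of the 8 libraries, with points for libraries and lines for the mean of a group. BRCA1, FANCL, XRCC5 and NBN were low in both groups with vorinostat, FANCM was high in both, and ERCC2 was low in the combination libraries alone, at 61.7 and 56.6 CPM.

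Of the 8 break sensing and checkpoint genes, 6 fell with vorinostat and the same number with the combination. NBN, the subunit of the MRE11-RAD50-NBN complex that recruits ATM, stood at 200.5 and 188 CPM with vehicle, 213 and 196 CPM with EC359, 87.2 and 95.3 CPM with vorinostat, and 69.1 and 66.7 CPM with the combination. Its log2 fold changes were −1.09 (SE 0.094) and −1.52 (SE 0.0954), and the step from vorinostat to the combination missed the threshold (−0.43, adjusted p = 0.0104). The nuclease gene MRE11A fell by 0.41 and 0.37, while RAD50, the third subunit, had log2 fold changes of −0.09 and 0.06 that did not pass.

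ATM, the kinase activated at double-strand breaks, stood at 114 and 116 CPM with vehicle, 89.1 and 102 CPM with EC359, 55.7 and 54.6 CPM with vorinostat, and 78.5 and 65.3 CPM with the combination. It fell by 1.06 (SE 0.116) on the log2 scale with vorinostat and by 0.68 (SE 0.115) with the combination. ATR, the kinase activated at stalled forks, stood at 65.3 and 69.6 CPM with vehicle, 72.0 and 71.3 CPM with EC359, 59.8 and 63.6 CPM with vorinostat, and 62.5 and 51.9 CPM with the combination. ATR passed in no comparison, with log2 fold changes of −0.13 and −0.24 in the groups with vorinostat.

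CHEK1, the kinase downstream of ATR, stood at 52.9 and 56.6 CPM with vehicle, 68.4 and 60.4 CPM with EC359, 24.6 and 24.9 CPM with vorinostat, and 29.2 and 34.2 CPM with the combination. The falls of CHEK1 were by 1.15 (SE 0.12) and 0.79 (SE 0.118). CHEK2, downstream of ATM, fell by 0.64 in both. TP53BP1, which protects ends from resection, stood at 129.6 and 129 CPM with vehicle, 117 and 105 CPM with EC359, 73.4 and 83.8 CPM with vorinostat, and 85.7 and 69.7 CPM with the combination. TP53BP1 fell by 0.72 (SE 0.122) and 0.74 (SE 0.123), and it shares 36.0% of its exon bases with TUBGCP4 on the opposite strand, whose log2 fold changes of −0.04 and 0.27 did not pass.

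In end joining, 5 of 7 genes fell with vorinostat, and 4 fell and 1 rose with the combination. The Ku subunits differed. XRCC5 (Ku80) stood at 659 and 654 CPM with vehicle, 690.2 and 631 CPM with EC359, 302 and 301 CPM with vorinostat, and 257 and 245 CPM with the combination. The log2 fold changes of XRCC5 were −1.12 (SE 0.0821, adjusted p = 4.11e-06) and −1.39 (SE 0.0827, adjusted p = 9.25e-07). XRCC6 (Ku70) had −0.31 with vorinostat, which did not pass (adjusted p = 0.015), and fell by 0.67 with the combination. With the vehicle and vorinostat libraries fitted alone, the fall of XRCC6 with vorinostat passed.

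PRKDC, the catalytic subunit of DNA-PK, stood at 1241 and 1243 CPM with vehicle, 1176 and 1320 CPM with EC359, 785 and 901 CPM with vorinostat, and 832 and 723 CPM with the combination. It fell by 0.56 (SE 0.104) and 0.68 (SE 0.105) on the log2 scale. POLQ, the polymerase of alternative end joining, went from 59.4 and 57.1 CPM with vehicle and 72.4 and 54.5 CPM with EC359 to 31.9 and 34.3 CPM with vorinostat and 37.1 and 37.4 CPM with the combination. Its falls were by 0.81 (SE 0.137) and 0.65 (SE 0.137). XRCC4, the scaffold of LIG4, and the nuclease gene DCLRE1C fell with vorinostat (−0.73 and −0.86) and did not pass with the combination (−0.17 and −0.05). Their differences between the combination and vorinostat were 0.56 (adjusted p = 0.0335) and 0.81 (adjusted p = 0.0106).

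LIG4, the ligase of end joining, was above vehicle in every treated library. It stood at 49.4 and 42.2 CPM with vehicle, 69.7 and 61.9 CPM with EC359, 61.5 and 58.6 CPM with vorinostat, and 80.2 and 78.9 CPM with the combination. Only the combination passed (log2 fold change 0.80, SE 0.111, adjusted p = 0.000187). EC359 (0.52, adjusted p = 0.0129) and vorinostat (0.39, adjusted p = 0.0125) were just outside the threshold, and the interaction of the drugs was −0.12 (adjusted p = 0.729).

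Of the mismatch repair genes MSH6 and PMS2, 1 fell with vorinostat and 0 with the combination, by edgeR and by DESeq2. Another 2 mismatch repair genes, outside the repair genes followed here, did not share this difference. By edgeR 2 fell with vorinostat and 2 with the combination, with medians of −0.48 and −0.46 on the log2 scale. MSH6, a subunit of the mismatch sensor, fell by 0.53 (SE 0.092) with vorinostat and had −0.18 (adjusted p = 0.11) with the combination, a difference between them of 0.35 (adjusted p = 0.0215). MSH6 shares 12.4% of its exon bases with FBXO11 on the opposite strand. FBXO11 had log2 fold changes of −0.67 (adjusted p = 0.00655) with vorinostat and −0.58 (adjusted p = 0.0125) with the combination. PMS2, which cuts the mismatched strand, had −0.17 and −0.31 and passed in neither, and it has near-identical copies elsewhere in the genome that could take some of its reads.

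All 7 base excision and single-strand break repair genes fell with the combination and 5 fell with vorinostat, with medians of −0.81 and −0.95. With the vehicle and vorinostat libraries fitted alone, PARP1 and XRCC1 also fell with vorinostat, where 35.5% of all genes were lower. LIG3, the ligase that seals single-strand breaks, stood at 42.4 and 39.9 CPM with vehicle, 39.0 and 31.1 CPM with EC359, 11.7 and 13.1 CPM with vorinostat, and 13.7 and 12.4 CPM with the combination. The log2 fold changes of LIG3 were −1.73 (SE 0.149) and −1.66 (SE 0.149). LIG3 shares 44.8% of its exon bases with RFFL on the opposite strand, and RFFL had log2 fold changes of 0.63 and 1.16.

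UNG, the glycosylase that removes uracil, stood at 86.5 and 96.1 CPM with vehicle, 80.2 and 89.9 CPM with EC359, 34.9 and 37.1 CPM with vorinostat, and 33.4 and 34.1 CPM with the combination. APEX1, the endonuclease that cuts the abasic site, stood at 306 and 298 CPM with vehicle, 328 and 262 CPM with EC359, 159 and 153 CPM with vorinostat, and 159 and 164 CPM with the combination. UNG fell by 1.34 and 1.44 and APEX1 by 0.95 and 0.90, and for both genes all libraries with vorinostat lay below all others.

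PARP1 and PARP2 encode the enzymes that mark single-strand breaks with poly(ADP-ribose). PARP1 stood at 395 and 383 CPM with vehicle, 425 and 358 CPM with EC359, 315 and 322 CPM with vorinostat, and 228 and 230.1 CPM with the combination. PARP1 fell with the combination (−0.76, SE 0.0969, adjusted p = 0.000101), and vorinostat alone did not pass (−0.29, adjusted p = 0.0262). PARP2 fell with both, by 1.14 with vorinostat and by 0.81 with the combination. OGG1, the glycosylase for oxidised guanine, fell by 0.77 and 0.63. XRCC1, the scaffold of this pathway, had −0.39 with vorinostat (adjusted p = 0.0551) and fell with the combination (−0.63, adjusted p = 0.00632), and the difference of −0.24 did not pass (adjusted p = 0.29).

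The nucleotide excision repair genes had medians of 0.20 with vorinostat and 0.10 with the combination. None of the 5 passed with vorinostat, and with the combination only ERCC2 did. ERCC1, the partner of the nuclease ERCC4, had log2 fold changes of −0.05 and 0.10, but it shares 47.1% of its exon bases with CD3EAP on the opposite strand, whose log2 fold changes were −0.17 and 0.55 (adjusted p = 0.0223 for the latter), so its level is uncertain. ERCC4 itself had 0.45 (adjusted p = 0.0113) and 0.42 (adjusted p = 0.0157), and the lesion binder XPA had −0.06 and −0.60. The nuclease ERCC5 was counted at 1.88 to 3.49 CPM, and 91.7% of its exon bases lie also in the readthrough gene BIVM-ERCC5, so its level is uncertain.

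**Figure D3:**
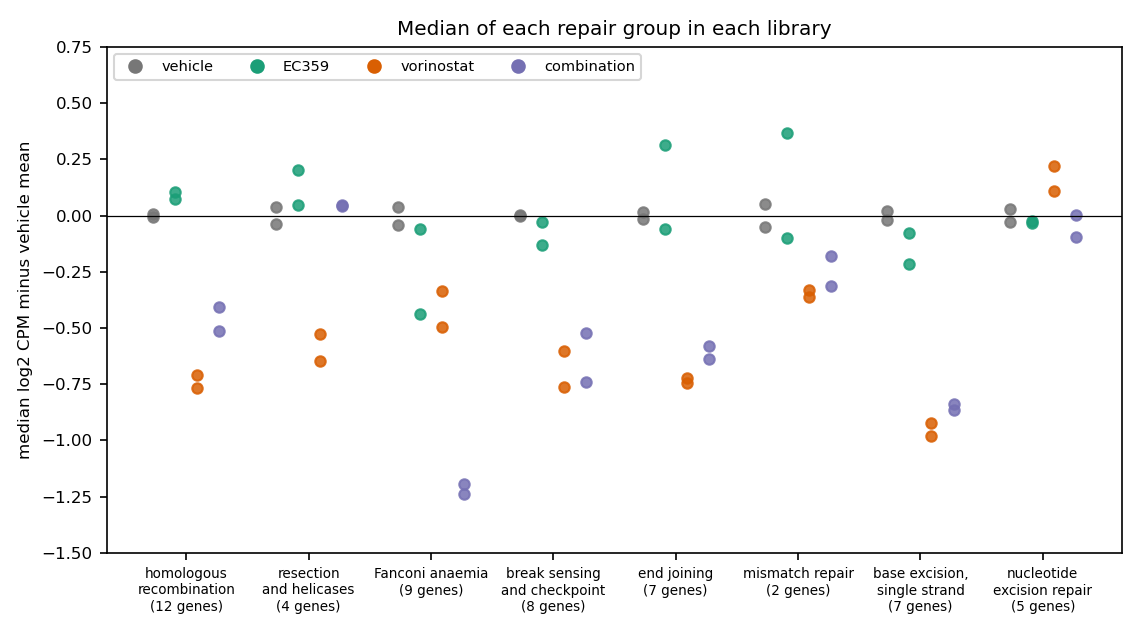
Median over the genes of each repair group of log2 CPM minus the vehicle mean (y axis), 1 point per library. The Fanconi anaemia median lay at −1.24 and −1.19 in the combination libraries and at −0.34 and −0.49 in the vorinostat libraries, and the resection and helicase median lay at 0.05 and 0.04 against −0.65 and −0.53. Medians of different libraries can fall on different genes. Taken gene by gene, the median of the combination against vorinostat was −0.36 for Fanconi anaemia (1 of 9 passed) and 0.53 for resection and helicases (2 of 4 passed).

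Adding EC359 to vorinostat moved 6 of the 54 genes past the test. XRCC2, EXO1 and RBBP8 were higher in the combination than with vorinostat alone, and ERCC2, FANCD2 and PARP1 were lower. These are 5.56% of the 54 in each direction, near the 8.45% of all genes tested that were higher and the 5.26% that were lower, and the median of the repair genes was 0.05. None of the 6 differed by over 2-fold.

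ERCC2, the helicase XPD of the transcription factor TFIIH (chr19:45853095-45874176), had the largest difference of the 6. It stood at 94.9 and 104 CPM with vehicle, 97.9 and 116 CPM with EC359, 113 and 116 CPM with vorinostat, and 61.7 and 56.6 CPM with the combination. The combination libraries lay below the other 6 libraries, with a log2 difference from vorinostat of −0.95 (SE 0.112, adjusted p = 0.000495). ERCC2 shares 13.0% of its exon bases with KLC3 on the opposite strand, and KLC3 did not pass the filter on low counts.

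FANCD2 differed from vorinostat by −0.78 (SE 0.142, adjusted p = 0.00424) and PARP1 by −0.48 (SE 0.0966, adjusted p = 0.00706). FANCL had a larger value, −1.01 (SE 0.276), with fewer counts behind it, and did not pass (adjusted p = 0.0242).

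XRCC2, a recombinase paralog (chr7:152341861-152373278), stood at 16.3 and 14.7 CPM with vehicle, 25.2 and 16.3 CPM with EC359, 10.0 and 9.52 CPM with vorinostat, and 19.5 and 18.3 CPM with the combination. The log2 difference between the combination and vorinostat was 0.95 (SE 0.202, adjusted p = 0.00866). EXO1 (chr1:242011269-242058450), which resects ends and excises mismatches, stood at 99.1 and 96.6 CPM with vehicle, 119 and 99.8 CPM with EC359, 74.0 and 77.6 CPM with vorinostat, and 122 and 116 CPM with the combination, a difference of 0.65 (SE 0.106, adjusted p = 0.00252).

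For both genes the vorinostat libraries were the lowest of the 8, and the combination libraries lay above vehicle by an amount that did not pass. RBBP8 stood at 76.5 and 71.0 CPM with vehicle, 102 and 95 CPM with EC359, 39.8 and 44.6 CPM with vorinostat, and 63.3 and 65.9 CPM with the combination. The difference was 0.61 (SE 0.102, adjusted p = 0.00282).

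**Figure D4:**
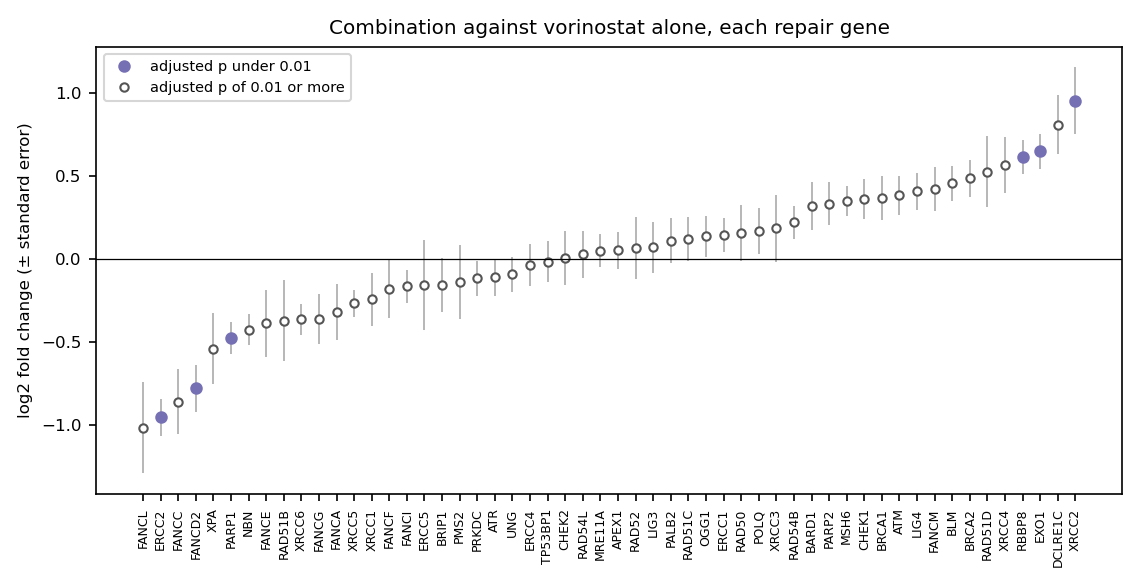
Log2 fold change of the combination against vorinostat alone (y axis, bars: standard error) for the 54 genes in rising order, with filled points for the 6 that passed the test. FANCL at −1.01 and DCLRE1C at 0.81 lie among the largest values and did not pass, with standard errors of 0.276 and 0.18.

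These 6 calls depend on the spread taken from the other libraries. A fit to the vorinostat and combination libraries alone had 12 genes higher and 9 lower, the 6 among them, and so had the fits without either EC359 library. In the first of these fits 17.3% of all genes were higher and 14.9% lower, near the 22.2% and 16.7% of the repair genes. Of the 6, only ERCC2 kept its call without either vorinostat library or without the first combination library. None kept it without the second combination library. XRCC2, FANCD2 and PARP1 lost theirs without either vehicle library. No log2 difference of the 6 changed sign in any of these fits.

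The promoters of XRCC2, EXO1 and FANCD2 are shown as examples of genes that differed between the combination and vorinostat. The first pair differed upward and the last downward. RBBP8 was also higher, and ERCC2 and PARP1 also lower, and their promoters are not shown. Each promoter shown is the 250 bases before the most upstream RefSeq start, on GRCh38.p14, from 5′ to 3′ on the strand of the gene. The windows are chr1:241847954-241848203 (plus strand) for EXO1, chr7:152676142-152676391 (minus strand) for XRCC2 and chr3:10026187-10026436 (plus strand) for FANCD2. Capitals mark the cAMP response element TGACGTCA.
EXO1: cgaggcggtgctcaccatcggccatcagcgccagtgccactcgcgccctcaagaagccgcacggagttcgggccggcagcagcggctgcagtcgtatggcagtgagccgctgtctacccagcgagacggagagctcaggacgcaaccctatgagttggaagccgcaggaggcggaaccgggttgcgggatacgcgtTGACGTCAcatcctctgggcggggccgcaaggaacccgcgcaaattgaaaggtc
XRCC2: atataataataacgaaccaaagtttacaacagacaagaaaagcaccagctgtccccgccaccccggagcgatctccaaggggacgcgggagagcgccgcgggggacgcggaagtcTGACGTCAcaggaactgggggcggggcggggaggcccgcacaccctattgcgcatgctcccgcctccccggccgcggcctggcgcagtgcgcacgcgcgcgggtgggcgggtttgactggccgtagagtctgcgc
FANCD2: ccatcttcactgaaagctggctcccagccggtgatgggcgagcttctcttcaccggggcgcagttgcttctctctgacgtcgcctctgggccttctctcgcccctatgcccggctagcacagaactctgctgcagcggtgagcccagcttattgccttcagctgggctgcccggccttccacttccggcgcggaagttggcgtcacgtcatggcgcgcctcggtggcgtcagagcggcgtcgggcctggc

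The element lies 54 to 47 bases before the start of EXO1 and 135 to 128 bases before that of XRCC2, and the FANCD2 window holds none. No window of RBBP8, which was also higher in the combination, held it, nor did one of ERCC2 or PARP1, which were lower. RefSeq windows were at hand for 49 of the 54 genes, not for NBN, XRCC5, PRKDC, FANCI and RAD54B. The element was in a window of 6 of these 49 genes (12.2%), EXO1, LIG4, PARP2, PMS2, RAD51C and XRCC2, and of 555 of 27305 genes with a window (2.03%). LIG4, PARP2, PMS2 and RAD51C did not pass in the combination against vorinostat. Another 2 elements, known from genes of dividing cells, were searched on both strands. The E2F words TTTCCCGC, TTTCGCGC, TTTGCCGC and TTTGGCGC were in windows of 4 of the 49 genes (8.16%), FANCA, FANCC, PMS2 and UNG, against 3.40% of all. The CHR word TTTGAA was in windows of 7 of the 49 (14.3%) against 16.05%. The 27305 genes include many that did not pass the filter on low counts, which the 49 all did, so the shares are not from like sets. Words were chosen with the results known, and a match is a description of letters, not a bound site.

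ERCC2 was also the 1 gene of the 54 for which the effect of EC359 differed with and without vorinostat. The interaction was −1.06 on the log2 scale (SE 0.157, adjusted p = 0.00564), since EC359 gave 0.10 without vorinostat and −0.95 with it. Of all genes, 1.62% had a higher and 0.482% a lower interaction. The call was lost without any one of the vehicle, vorinostat or combination libraries, with values between −1.17 and −0.99, although the direction held. Without the first EC359 library 4 genes were higher and 1 lower, and without the second 2 were higher and 4 lower. Of all genes, 6.31% were higher and 3.73% lower without the first, and 5.63% and 4.51% without the second. ATM (0.65, adjusted p = 0.0487), NBN (−0.50, adjusted p = 0.0585) and PARP1 (−0.49, adjusted p = 0.071) came next and did not pass.

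EC359 alone moved 0 of the 54 genes by edgeR, with a median log2 fold change of −0.03 against −0.02 over all genes. Of the 54, 7 had an unadjusted p under 0.05, or 13.0%, where 30.9% of all genes did, and DESeq2 called 2, LIG4 and RBBP8, both higher (3.7%, where 6.21% of all genes were higher). The largest values were those of LIG4 (0.52) upward and FANCD2 (−0.48) downward. Without the second EC359 library, 3 genes were higher and 5 lower (5.56% and 9.26%), where 13.6% and 12.9% of all genes were, and without the first 0 were either, where 5.32% and 6.04% were. The first EC359 library held 63.4 CPM of FANCD2 against 84.9 CPM in the second, and 25.2 CPM of XRCC2 against 16.3 CPM.

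Against EC359 alone the combination lowered 26 genes and raised 2, FANCM and ERCC4, where 26.3% of all genes were lower and 29.5% higher. The median of the repair genes was −0.51. The rise of ERCC4 (0.48, adjusted p = 0.0082) was the weaker of the pair, and it was lost without any one library other than the second EC359 library.

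Levels can be compared between genes only per length. In CPM per kilobase of the canonical transcript, APEX1 (208 ± 3.95, SD, n = 2), XRCC5 (194 ± 1.05) and XRCC6 (189 ± 2.88) led in vehicle, followed by PARP1 (97.7 ± 2.16) and PRKDC (92.3 ± 0.0625). With the combination XRCC6 led (119 ± 0.89), ahead of APEX1 (111 ± 2.45) and XRCC5 (74.2 ± 2.54). The Ku subunits, which bind DNA as a dimer, were thus close in vehicle and apart in the groups with vorinostat on this scale.

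Other genes of these pathways were counted for comparison. Of 99 further repair genes tested, vorinostat lowered 42 and raised 13, and the combination lowered 39 and raised 15, with a median of −0.29 in both. The largest rise with the combination was that of RAD9A, a subunit of the checkpoint clamp, from 15.5 and 13.7 CPM with vehicle to 39.2 and 38.9 CPM (log2 fold change 1.42, SE 0.147). FAM175A, the scaffold of the BRCA1-A complex, was next (0.97, SE 0.189). Downward, TIMELESS, a fork protection factor, went from 136 and 129 CPM to 34.6 and 41.2 CPM (−1.80, SE 0.109), and the glycosylase NEIL1 was near the limit of detection, from 1.27 and 1.26 CPM to 0.205 and 0 CPM.

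Against vehicle, most markers of the cell cycle fell with vorinostat, alone or combined, as did most of the repair genes that changed. Of 45 replication genes, vorinostat lowered 36 and raised 4, and the combination lowered 31 and raised 3, with medians of −0.91 and −0.79. Of 54 G2 and M phase genes, vorinostat lowered 44 and raised 1 and the combination lowered 50 and raised 0, with medians of −0.80 and −1.19. EC359 alone lowered 9 of the G2 and M phase genes (16.7%) and 0 of the replication genes by edgeR, where 4.01% of all genes were lower. Of the replication genes, 15 had an unadjusted p under 0.05 (33.3%), where 30.9% of all genes did. Against vorinostat, the combination was lower for 17 and higher for 0 of the G2 and M phase genes, and lower for 2 and higher for 4 of the replication genes, with medians of −0.32 and 0.07. Lower were thus 31.5% and 4.44% of these lists, where 5.26% of all genes were lower and 8.45% higher. The part of these changes in the falls of the repair genes was not tested.

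**Figure D5:**
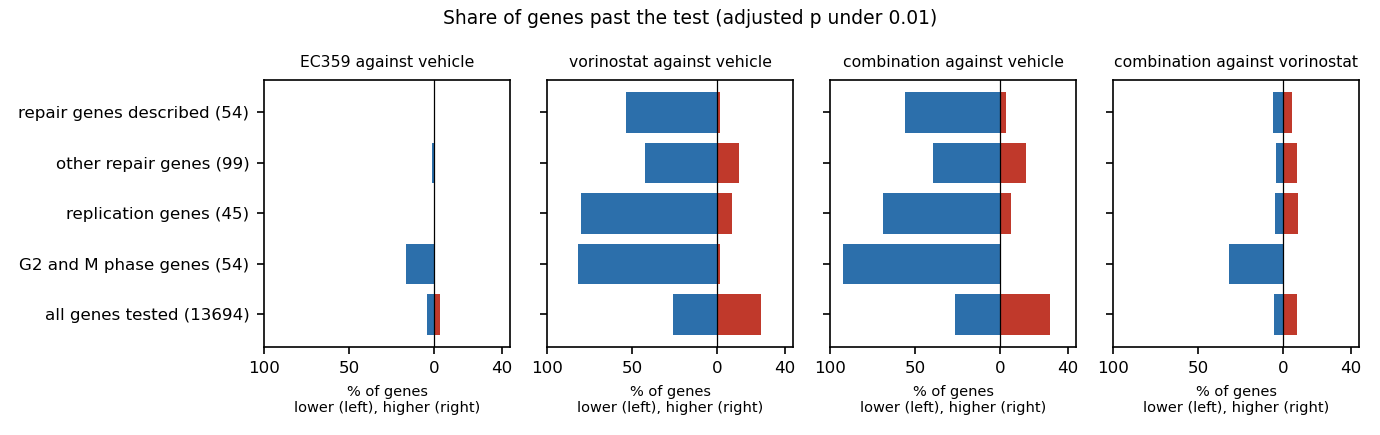
Share of genes (x axis, percent) that passed the test as lower (left, blue) or higher (right, red) in 4 comparisons, for the 54 repair genes, 99 other repair genes, 45 replication genes, 54 G2 and M phase genes and all 13694 genes. With vorinostat, alone or combined, the lower share of the first 4 lists exceeded that of all genes (25.9% and 26.7%).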

How the data were processed

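Total RNA of BT-549 cells was sequenced by the authors as 50 bp single-end reads from TruSeq libraries. Per the labels the reads were aligned to hg19 with TopHat2 2.0.8b, and the deposited values are raw read counts per gene symbol from HTSeq, 1 list per library, with no normalization. The 5 summary lines of each list were left out; 85.1% to 88.1% of the reads counted as on a gene, on no gene or ambiguous were on genes. No other version, and no strand setting for HTSeq, is given in the sources used here.

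Genes were kept by filterByExpr in edgeR 4.0.16 (R 4.3.3), scaled by TMM, and fitted with 1 mean per group over the 8 libraries in a quasi-likelihood model (common dispersion 0.0135, 4.98 prior degrees of freedom). Comparisons between groups, and the interaction, used the quasi-likelihood F test of edgeR, with Benjamini-Hochberg adjustment across 13694 genes. For the SE, the size of the log2 fold change was divided by the root of F. These steps were tested on simulated data of 13388 genes: for vorinostat against vehicle, 58.5% of 200 genes given a log2 change of 1 passed, and for the interaction, 65.0% of 200 given a log2 change of 1.5. With vorinostat in the real data 25.9% of all genes were lower and 26.2% higher, which makes the adjusted threshold easier to pass. The share for vorinostat therefore does not give the detection rate in these data. Changes can be missed, and smaller ones were not simulated.

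The 54 genes, the other lists and the promoter words were chosen with earlier results of these data known. Levels in every library are given for up to 3 genes per repair group with the largest fold change past the test in the combination against vehicle, for those past the test in the combination against vorinostat and in the interaction, and for BRCA1, BRCA2, ATM, ATR, PRKDC, PARP1 and POLQ; FANCM was added after its values were seen. Of the other repair genes, the 2 largest in each direction are named. The lists held 100 other repair genes found by symbol, of which 99 were tested. Positions and exon overlaps came from GENCODE v44 lifted to GRCh37, with MRE11A found as MRE11, and promoters from RefSeq on GRCh38.p14. The paper annotated genes with NCBI RefSeq, so the overlaps in the counting may differ. Alternatives were RLE and total-count scaling, DESeq2 1.42.0, other filters and thresholds, fits to the compared groups alone, a replicate block, and leaving out each library in turn; a crossed replicate block and a transcript length offset were added after seeing the data. Figures were drawn with matplotlib 3.10.9.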

Additional observations from a re-analysis of the deposited data

Results flagged for a closer look

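ERCC2 was the 1 gene of the 54 whose response to EC359 differed between cells with and without vorinostat by the interaction test. The interaction was −1.06 on the log2 scale (adjusted p = 0.00564 by edgeR's quasi-likelihood test), from 94.9 and 104 CPM with vehicle, 97.9 and 116 CPM with EC359, 113 and 116 CPM with vorinostat, and 61.7 and 56.6 CPM with the combination. The adjusted p ran from 3.56e-07 to 0.0483 over the alternatives. Its cause was not tested.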

How the results depend on the processing

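All 30 genes past the test with vorinostat and all 32 with the combination, rises included, kept their call under RLE scaling, total-count scaling and DESeq2, and no scaling moved the median of all genes by more than 0.0881 on the log2 scale. Requiring also a 2-fold change left 14 lower and 0 higher with vorinostat, 12 and 1 with the combination, 12 and 1 for the combination against EC359, and 0 and 0 for the combination against vorinostat. Of all genes, these were 13.3% and 16.8%, 15.3% and 19.5%, 13.9% and 19.8%, and 0.876% and 3.37%, in that order. At an adjusted p under 0.05 the counts of higher genes were 2 with EC359, 4 with vorinostat, 5 with the combination, 11 for the combination against vorinostat, 4 against EC359 and 1 for the interaction, and of lower genes 1 with EC359 alone and 8 for the combination against vorinostat. Of all genes, 8.07%, 33.4%, 36.4%, 15.7%, 35.7% and 4.69% were then higher, and 8.6% and 12.7% lower, in that order. DESeq2 gave 2 higher with EC359 alone, 4 higher for vorinostat, and 5 higher and 7 lower for the combination against vorinostat. The shares of all genes were 6.21%, 27.7%, 10.4% and 10%. A fit to the compared groups alone gave 4 higher and 38 lower for vorinostat, 12 higher and 9 lower for the combination against vorinostat, and 1 higher against EC359. The shares of all genes were 36.3%, 35.5%, 17.3%, 14.9% and 22.6%. RLE scaling gave 3 higher for vorinostat, 5 lower for the combination against vorinostat and 1 higher against EC359, and total-count scaling 2, 6 and 1. Of all genes, these were 26.8%, 6.19% and 28.7% under RLE, and 26.1%, 7.7% and 27.4% under total-count scaling. With no filter on low counts there were 1 higher with EC359 alone, 7 lower for the combination against vorinostat and 1 higher against EC359, and with a mean count of at least 50, 3 higher for vorinostat and 4 for the combination. The shares of all genes were 3.75%, 5.83% and 20.9% with no filter, and 28.1% and 31.8% with the mean count of at least 50. A transcript length offset gave 1 higher with EC359 alone, 3 for vorinostat and 1 for the combination against EC359, and 5 lower for the combination against vorinostat. The shares of all genes were 4.5%, 27.7%, 29.2% and 7.48%.

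Leaving out 1 library at a time gave medians of the repair genes from −0.05 to 0.02 with EC359 alone. They ran from −0.70 to −0.61 with vorinostat and from −0.69 to −0.62 with the combination. For the combination they ran from −0.03 to 0.05 against vorinostat and from −0.63 to −0.52 against EC359. For the interaction they ran from −0.01 to 0.16. Of the 30 genes past the test with vorinostat, 9 lost their call without the first vorinostat library and 7 without the second, and of the 32 with the combination at most 6 did, without the second vehicle library. A group then holds 1 library, assumed to vary like the others.

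No strong pairing of the libraries by replicate number was seen: the deviations of libraries with the same number correlated between −0.126 and 0.171 over the pairs of groups. With 2 libraries per group, this cannot show that libraries were not prepared in pairs. The replicate block left 0 lower genes for the interaction, where ERCC2 had −1.05, took PARP1 from the combination against vorinostat and MRE11A and XRCC1 from the combination against vehicle, and left every other count within 1.5 times. A crossed replicate block gave 1 higher with EC359 alone, 2 for vorinostat, and 5 higher and 6 lower for the combination against vorinostat. The shares of all genes were 4.97%, 28%, 10.9% and 8.11%. Causes were not tested. The medians of the resection and nucleotide excision groups with the combination changed sign under some settings (lowest −0.04 and −0.15).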
